A study of Mus musculus with 10 samples.

Results

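Transcripts of 9 genes of mitochondrial fatty acid beta-oxidation were followed in the livers of mulberry-treated and untreated mice. The genes were Cpt2, Slc25a20, Acadvl, Acadl, Acadm, Hadha, Hadhb, Acaa2 and Decr1, taken by symbol from the array. They were 9 of the 17847 genes tested and of the 32636 names on the array, and they were measured by 10 probes, all well above background on all 10 arrays. Of the 9, Slc25a20 encodes a carrier and the others encode enzymes. The mulberry group held 5 male C57BL/6NCrSlc mice, an inbred strain, that were fed a high-cholesterol diet and drank an extract of mulberry (Morus alba) leaves for 4 weeks. The control group held 5 male mice of the same strain on the same diet without the extract. The high-cholesterol diet was thus common to both groups, and livers of mice on another diet were not analysed here. The labels give neither the age of the mice nor the dose of extract, and the title frames the study around cholesterol synthesis in hypercholesterolemic mice.

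In mitochondrial beta-oxidation, a fatty acid enters the matrix as an acylcarnitine, is turned back into an acyl-CoA, and is then shortened in repeated rounds that each release acetyl-CoA. Dehydrogenases that differ in the chain length they prefer open each round, and a hydratase, another dehydrogenase and a thiolase complete it. In liver the pathway supplies energy and the acetyl-CoA for ketone bodies, chiefly in fasting, and many of its genes are known targets of the nuclear receptor PPAR alpha.

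Each liver was measured on 1 one-colour Agilent array, from 500 ng of RNA. Levels are on a log2 scale, as processed intensity relative to the array's own 75th percentile, so a level of 0 is that percentile and levels are not compared between genes. That percentile lay between 147 and 265 intensity units, the share of probes well above background was 54.4% to 62.4%, and 0 spots were saturated. The file headers showed 2 scan days and 4 slides. Day 1 held mulberry 3 and 5 on one slide and control 2, 3 and 5 on another, so slide and group cannot be told apart within it. Day 2 held mulberry 2 and 4 on one slide and mulberry 1 with control 1 and 4 on another. In a deposited table of the whole series, the columns labelled control 1 to 5 correlated best, across 11150 genes, with the scanner files labelled control 5, 1, 2, 3 and 4. Their r there was 0.890 to 0.971, against -0.51 to -0.04 with the file of the same label, and the mulberry columns matched their own files (r 0.940 to 0.985). The control numbers used here are those of the scanner files, and that table entered only as an alternative between groups. The hepatocyte genes Alb, Ttr and Apoa1 were well above background on all 10 arrays, with Alb at 9.98 ± 0.52 in mulberry and 10.18 ± 0.22 in control livers (log2 level, SD, n = 5 each). Because whole liver was measured, fewer cells of a type and less RNA per cell cannot be told apart.

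The promoters of 7 of the 9 genes were found in the RefSeq promoter table of mouse assembly GRCm38.p6. They are shown as the 250 bases before the annotated start, because most of these transcripts varied together from liver to liver. Capitals mark the GC box GGGCGG and the nuclear receptor core motif AGGTCA, each on either strand (as CCGCCC and TGACCT where it lies on the other strand). The trifunctional protein genes Hadha and Hadhb start 272 bases apart and run in opposite directions, so their windows share 228 bases. The Hadhb window is chr5:30155003-30155252 on the plus strand, that of Hadha is chr5:30154981-30155230 on the minus strand, and that of the carrier gene Slc25a20 is chr9:108661886-108662135 on the plus strand.
Hadhb: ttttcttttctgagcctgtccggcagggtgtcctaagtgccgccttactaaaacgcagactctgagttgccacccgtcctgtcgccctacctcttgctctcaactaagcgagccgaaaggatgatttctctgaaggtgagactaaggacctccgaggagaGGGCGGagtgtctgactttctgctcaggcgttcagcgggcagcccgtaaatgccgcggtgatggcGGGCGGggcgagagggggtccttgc
Hadha: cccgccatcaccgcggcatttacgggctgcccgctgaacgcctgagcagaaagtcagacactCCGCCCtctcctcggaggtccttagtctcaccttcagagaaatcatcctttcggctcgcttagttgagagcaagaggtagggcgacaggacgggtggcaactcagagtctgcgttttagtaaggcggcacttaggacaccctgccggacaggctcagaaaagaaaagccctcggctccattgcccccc
Slc25a20: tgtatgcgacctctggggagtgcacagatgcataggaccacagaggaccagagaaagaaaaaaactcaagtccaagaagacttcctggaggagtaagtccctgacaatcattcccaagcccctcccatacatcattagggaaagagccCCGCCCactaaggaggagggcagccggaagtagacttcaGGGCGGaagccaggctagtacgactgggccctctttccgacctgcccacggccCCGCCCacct
The dehydrogenase windows are chr11:70015429-70015678 for Acadvl, chr1:66863310-66863559 for Acadl and chr3:153944644-153944893 for Acadm, all on the minus strand.
Acadvl: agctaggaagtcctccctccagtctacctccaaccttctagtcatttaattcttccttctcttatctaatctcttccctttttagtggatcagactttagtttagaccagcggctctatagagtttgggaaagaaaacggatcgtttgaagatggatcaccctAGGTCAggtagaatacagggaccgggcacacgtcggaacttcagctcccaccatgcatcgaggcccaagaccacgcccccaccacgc
Acadl: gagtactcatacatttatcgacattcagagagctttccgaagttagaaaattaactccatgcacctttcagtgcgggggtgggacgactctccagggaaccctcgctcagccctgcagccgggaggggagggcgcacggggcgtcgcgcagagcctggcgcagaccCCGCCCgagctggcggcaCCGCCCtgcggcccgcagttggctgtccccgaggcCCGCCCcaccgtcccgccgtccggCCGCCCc
Acadm: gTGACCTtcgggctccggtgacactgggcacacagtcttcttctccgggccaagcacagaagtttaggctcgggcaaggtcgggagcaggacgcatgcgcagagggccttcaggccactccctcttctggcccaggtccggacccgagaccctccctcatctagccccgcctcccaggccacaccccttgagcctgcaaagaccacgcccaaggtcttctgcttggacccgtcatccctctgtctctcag
The Cpt2 window is chr4:107923590-107923839 on the minus strand.
Cpt2: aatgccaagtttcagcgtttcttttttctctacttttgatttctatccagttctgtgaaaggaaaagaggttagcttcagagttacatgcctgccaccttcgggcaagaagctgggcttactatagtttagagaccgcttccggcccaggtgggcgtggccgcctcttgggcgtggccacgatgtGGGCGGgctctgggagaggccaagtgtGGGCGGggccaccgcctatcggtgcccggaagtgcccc
The GC box was present in 5 of the 7 windows (Cpt2, Slc25a20, Acadl, Hadha and Hadhb) and in 32.7% of the 32851 promoters in the table. The only box of Hadha and the first of Hadhb are the same bases of their shared part, so these windows are not independent. The AGGTCA motif was present in 2 of the 7 (Acadvl and Acadm) and in 14% of all promoters. Its direct repeat with any single base between both copies, the type of element that PPAR alpha is known to bind, was in 0 of the 7 and in 0.0335% of all. The TATA box TATAAA was in 0 of the 7 and in 12.4% of all. Base composition ranged from 49.6% G and C in Acadvl to 68.0% in Acadl, where the median promoter had 52.4%. These matches describe the letters of these windows only.

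Among all genes, 0 of 17847 (percent called 0) passed the limma test of mulberry against control (smallest adjusted p = 0.416), and unadjusted p was under 0.05 for 954 genes (5.35%). None of the 9 members passed and 0 had an unadjusted p under 0.05. With arrays weighted by the precision that limma estimated for each, 6 of 9 were higher at an unadjusted p under 0.05 (9.42% of all genes), and without control 1 the members Acadm and Decr1 were (4.08% of all genes). In neither fit did a member pass the adjusted threshold. With slide as a fixed block, 0 of 9 were higher, against 34.8% of all genes. The 9 differences of that fit ranged from -0.96 for Acaa2 to -0.71 for Hadha on the log2 scale. The contrast of that fit rests on mulberry 1 against control 1 and 4, because only their slide held both groups. With 1 mulberry liver in that contrast, its unadjusted p are not counted here. Of the 9, 8 were higher on average with mulberry and Acaa2 was lower, where 48.1% of all genes were higher. Under median scaling 6 of 9 were higher (26.8% of all genes), under normexp background correction 5 (52.9%) and under quantile normalization 9 (45.8%). The median difference, mulberry minus control, was 0.30 on the log2 scale, against -0.01 over all genes tested. It was 0.72 with array weights and -0.88 with slide as a fixed block. Under median scaling it was 0.14, where the median of all genes was -0.17, and under normexp it was 0.02, where that of all genes was 0.03. The ranges of both groups overlapped for all 9 members, and 0.751% of all genes had groups that did not overlap. With 5 arrays in each group, an exact two-sided permutation test over the 252 assignments of arrays cannot give a p under 0.00794.

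**Figure D1:**
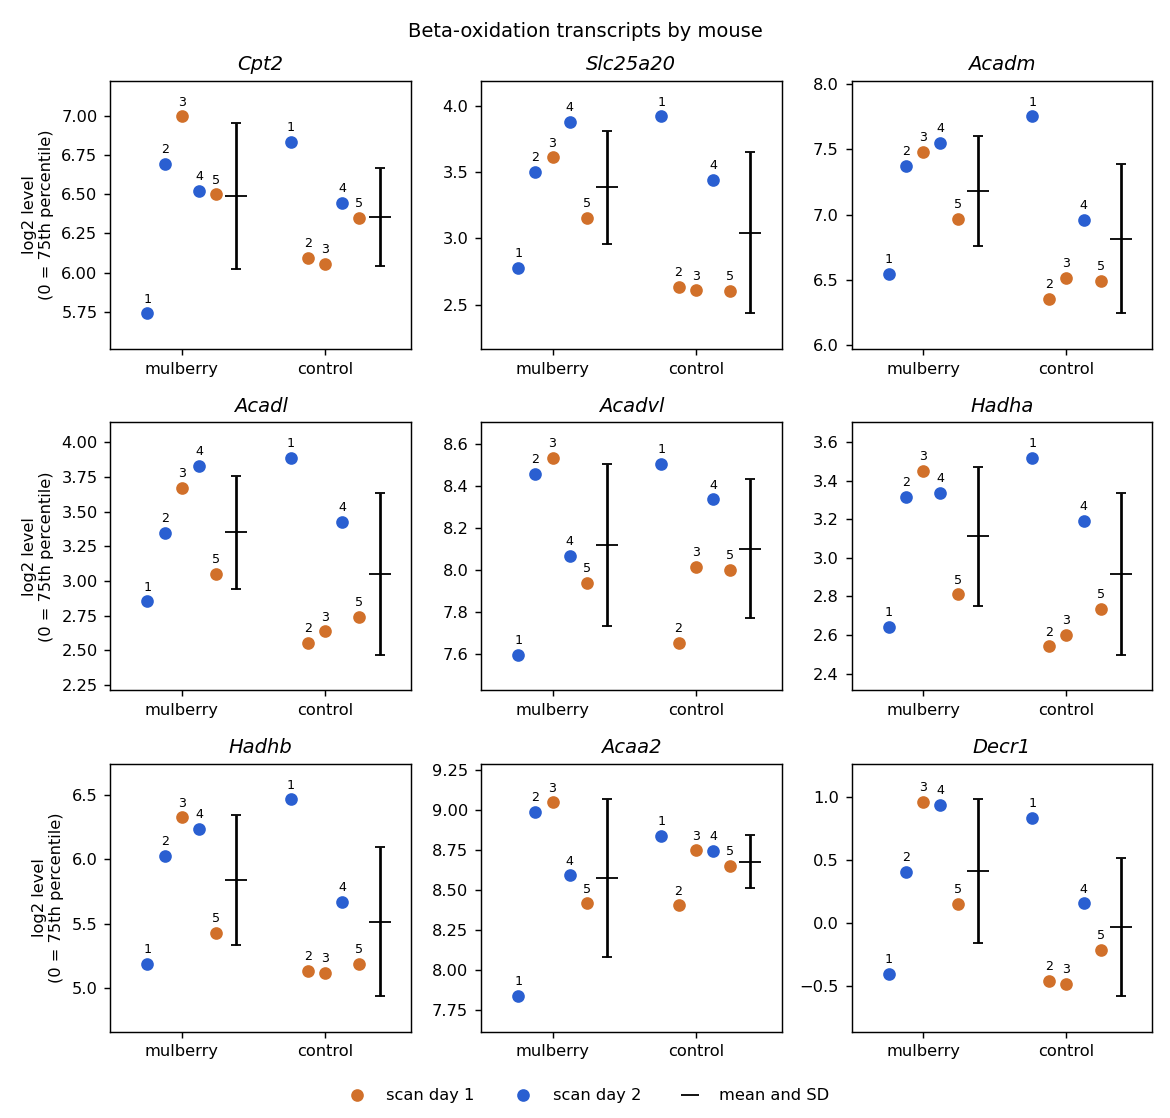
Log2 level of each of the 9 genes (y axis, relative to the 75th percentile of the array) in the 5 mulberry and 5 control livers, 1 numbered point per liver, coloured by scan day, with the group mean and SD as a black bar (n = 5 each). The groups overlap in every panel, mulberry 1 is the lowest mulberry liver for all 9 genes, and control 1 is the highest control liver for all 9.

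The carnitine shuttle was represented by its inner membrane steps. Slc25a20, the carnitine-acylcarnitine translocase that carries acylcarnitines across the inner membrane, had log2 levels of 2.78, 3.50, 3.61, 3.88 and 3.15 in mulberry 1 to 5, against 3.92, 2.63, 2.61, 3.44 and 2.60 in control 1 to 5. Control 2, 3 and 5 lay below all mulberry livers, and control 1 lay above all of them. The difference was 0.34 ± 0.30 (SE; 95% interval -0.32 to 1.01), with a limma adjusted p of 0.888 and an exact permutation p of 0.317. Cpt2, the carnitine palmitoyltransferase that re-forms acyl-CoA in the matrix, had 5.74, 6.69, 6.99, 6.52 and 6.50 in mulberry 1 to 5, against 6.83, 6.09, 6.06, 6.45 and 6.35 in control 1 to 5. Here 4 of 5 mulberry livers lay above the control mean, while mulberry 1 was the lowest of all 10 livers. The difference was 0.13 ± 0.23 (-0.38 to 0.65; limma adjusted p = 0.930, exact permutation p = 0.603).

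The acyl-CoA dehydrogenases open each round. Acadm, the medium-chain enzyme, had log2 levels of 6.55, 7.37, 7.48, 7.55 and 6.97 in mulberry 1 to 5, against 7.75, 6.35, 6.51, 6.96 and 6.49 in control 1 to 5. Its pattern was that of Slc25a20, with control 1 the highest of all and control 2, 3 and 5 the lowest. The difference was 0.37 ± 0.29 (-0.27 to 1.01), a fold of 1.29, with a limma adjusted p of 0.888 and an exact permutation p of 0.278. Acadl, the long-chain enzyme, had 2.85, 3.35, 3.67, 3.83 and 3.05 in mulberry 1 to 5, against 3.89, 2.55, 2.64, 3.43 and 2.74 in control 1 to 5, and differed by 0.30 ± 0.29 (-0.33 to 0.94; limma adjusted p = 0.888, exact permutation p = 0.349). Acadvl, the very long-chain enzyme, ranged from 7.59 to 8.53 in mulberry and from 7.65 to 8.50 in control livers. Its groups nearly coincided, with a difference of 0.02 ± 0.22 (-0.46 to 0.49; limma adjusted p = 0.991, exact permutation p = 0.905).

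The trifunctional protein carries the next steps for long chains. Hadhb, its beta subunit and thiolase, had log2 levels of 5.19, 6.02, 6.33, 6.24 and 5.43 in mulberry 1 to 5, against 6.47, 5.13, 5.12, 5.67 and 5.19 in control 1 to 5. Hadha, its alpha subunit with the hydratase and dehydrogenase activities, had 2.64, 3.32, 3.45, 3.34 and 2.81 in mulberry 1 to 5, against 3.52, 2.54, 2.60, 3.19 and 2.74 in control 1 to 5. For both subunits mulberry 2, 3 and 4 lay with control 1 and 4 in the upper range, and mulberry 1 and 5 lay with control 2, 3 and 5 in the lower. The differences were 0.33 ± 0.31 for Hadhb (-0.36 to 1.01; limma adjusted p = 0.888, exact permutation p = 0.357) and 0.19 ± 0.23 for Hadha (-0.32 to 0.71; limma adjusted p = 0.902, exact permutation p = 0.397).

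Acaa2, the matrix thiolase that ends each round for shorter chains, had log2 levels of 7.83, 8.99, 9.05, 8.59 and 8.42 in mulberry 1 to 5, against 8.84, 8.40, 8.75, 8.74 and 8.65 in control 1 to 5. The spread was wider in mulberry livers (SD 0.49) than in control livers (SD 0.17), and mulberry held both the lowest and the highest values. The difference was -0.10 ± 0.22 (-0.59 to 0.38; limma adjusted p = 0.945, exact permutation p = 0.730). The array carried 10 spots of the Acaa2 probe, whose log2 values had an SD between 0.0107 and 0.0748 within an array.

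Decr1, the 2,4-dienoyl-CoA reductase that prepares unsaturated fatty acids for the pathway, had the largest difference of the 9. Its log2 levels were -0.40, 0.41, 0.96, 0.93 and 0.15 in mulberry 1 to 5, against 0.83, -0.46, -0.48, 0.15 and -0.21 in control 1 to 5. Mulberry 3 and 4 lay above all controls. The difference was 0.44 ± 0.32 (-0.26 to 1.14), a fold of 1.36 (0.837 to 2.20), with a limma adjusted p of 0.888 and an exact permutation p of 0.222. A second Decr1 probe had -2.01, -1.55, -1.24, -0.66 and -1.83 in mulberry 1 to 5, against -0.73, -2.36, -2.25, -1.58 and -2.19 in control 1 to 5. Its difference was 0.36 ± 0.34, in the same direction as that of the other probe.

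The 2 scan days differed in the direction of the difference. On day 1 all 9 members were higher with mulberry (median 0.72 on the log2 scale), against 0.02 over all genes, of which 52.8% were higher. On day 2, 0 of 9 were higher (median -0.30), against -0.03 over all genes, of which 45.9% were higher. The Decr1 difference was 0.94 on day 1 and -0.18 on day 2, and that of Acadm was 0.77 and -0.20. Acaa2 had 0.13 on day 1 and -0.32 on day 2. On the slide that held both groups, mulberry 1 lay below the mean of control 1 and 4 for all 9 members (median -0.88). With mulberry 1 left out of day 2, 4 of 9 members were higher (50.9% of all genes), and with control 1 left out, 3 of 9 were (48.0%).

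The difference between days was tested directly with limma, as the interaction of mulberry and day. Of all genes, 0 passed (percent called 0, smallest adjusted p = 1.0) and 615 had an unadjusted p under 0.05 (3.45%). The interaction, day 1 minus day 2, was above 0 for 9 of 9 members, as for 53.8% of all genes, and ranged from 0.45 for Acaa2 to 1.12 ± 0.57 for Decr1. Unadjusted p was under 0.05 for Slc25a20 (1.06 ± 0.45) and Acadl (1.03 ± 0.44), each with a limma adjusted p of 1.0. Both controls of day 2 lay above all 3 controls of day 1 for 8 of 9 members, all except Acaa2, as they did for 21.2% of all genes. The mulberry livers of day 1 lay above all controls of day 1 for 7 of 9 members, all except Acadvl and Acaa2, against 10.6% of all genes.

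**Figure D2:**
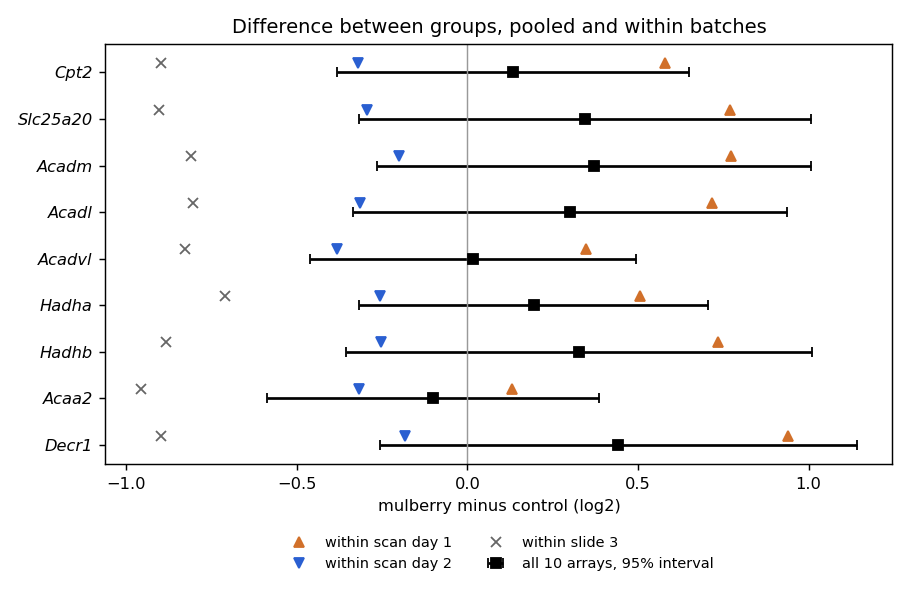
Difference of each of the 9 genes, mulberry minus control on the log2 scale, over all 10 livers with its 95% interval, and as the difference between group means on each scan day and on slide 3, which held both groups. All 9 intervals include 0, the day 1 values are above 0 for all 9 genes, and the day 2 and slide 3 values are below 0 for all 9.

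Individual livers carried much of the spread. With each gene centred on its mean over the 10 livers, the mean of the 9 members was -0.52, 0.30, 0.51, 0.39 and -0.11 in mulberry 1 to 5, against 0.57, -0.51, -0.40, 0.10 and -0.32 in control 1 to 5 (log2 scale). Control 1 was the highest control for all 9 members, as for 27.1% of all genes, and mulberry 1 was the lowest mulberry liver for all 9, as for 43.3%. The range over the 10 livers was 0.94 for Acadvl to 1.44 for Decr1, and it exceeded 1 for 7 of 9 members, all except Acadvl and Hadha, and for 50% of all genes. Without control 1 the median difference of the 9 was 0.51, the highest value with a single liver left out. It was 0.18 without control 2 and without mulberry 4, and 0.20 without control 3.

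**Figure D3:**
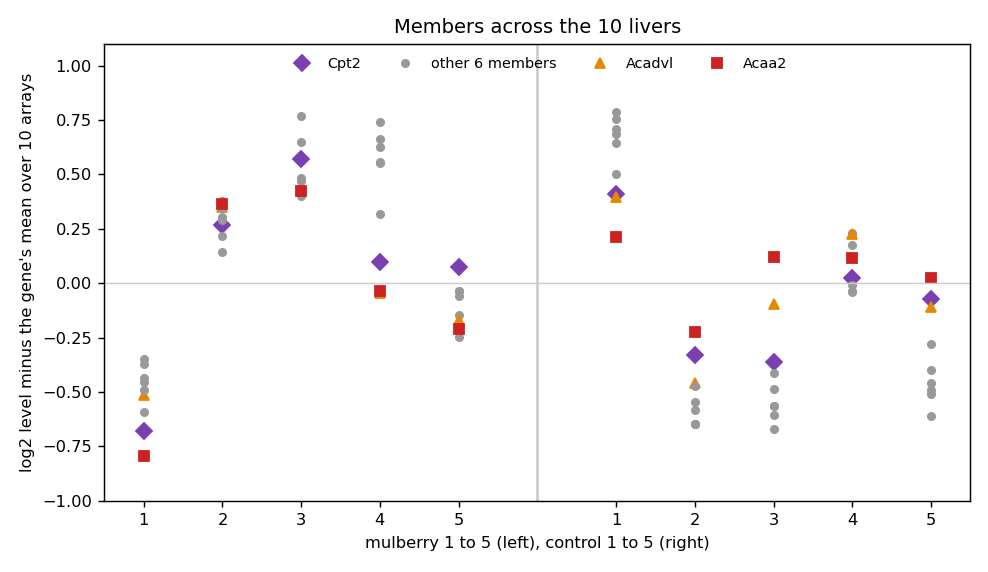
Level of the 9 genes in each liver, each gene centred on its mean over the 10 livers (y axis, log2 scale), with mulberry 1 to 5 on the left and control 1 to 5 on the right. Acaa2 (red squares) is the highest of the 9 in control 2, 3 and 5 and the lowest in control 1 and mulberry 1. The SD over the 9 genes is largest in mulberry 4 (0.31), followed by control 3 (0.26).

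Markers of other cells differed between the same livers. The mean of 16 tested macrophage markers of 18 listed, each centred over the 10 livers, was 1.87 in mulberry 1 and 1.67 in mulberry 5, and it ranged from -1.03 to -0.15 in the other 3 mulberry livers and from -1.06 to 0.65 in controls. Of these markers 14 of 16 were higher on average with mulberry, and 0 of 16 were without mulberry 1 and 5. The mean of 13 tested lymphocyte markers of 15 listed was 1.48 in mulberry 1 and 1.19 in mulberry 5, from -0.41 to -0.17 in the other mulberry livers, and from -0.69 to 0.34 in controls. All 13 lymphocyte markers were higher on average, and 7 of 13 were without mulberry 1 and 5. The mean of 11 tested hepatocyte markers of 13 listed ranged from -0.74 to 0.22 in mulberry livers, with mulberry 1 the lowest, and from -0.22 to 0.36 in controls, and 0 of 11 were higher on average (3 of 11 under quantile normalization). The mean of 10 stellate cell markers was 0.88 in mulberry 1 and 0.98 in mulberry 5, from -0.43 to -0.13 in the other mulberry livers, and from -0.55 to 0.12 in controls. Of these markers 8 of 10 were higher on average, and 4 of 10 were without mulberry 1 and 5. The other marker lists showed no common direction. Higher on average were 4 of 9 endothelial, 2 of 4 bile duct, 1 of 2 adipocyte, 1 of 4 red cell and 2 of 3 acinar markers tested. Without mulberry 1 and 5 the median of the 9 beta-oxidation members was 0.57, all 9 being above 0 and 0 past the threshold of the limma test. Over all genes the median was then 0.05, with 59.1% higher. Mulberry 1 and 5 were the lowest mulberry livers for each of the 9 members and the highest for the macrophage, lymphocyte and stellate means. Leaving them out therefore had to raise the members and lower those means in the mulberry group. The part of other cells in the pooled values was not tested beyond this.

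The 9 transcripts varied together over the 10 livers. Over the 36 pairs, Pearson's r had a median of 0.878 and ranged from 0.489 to 0.986, and 31 pairs had a permutation p under 0.05 after Benjamini-Hochberg adjustment over the 36 (30 pairs for Spearman's rho). Slc25a20 and Acadl had the highest r, 0.986 (permutation p = 1e-05, the smallest that 100000 resamples can give, adjusted p = 0.00012), with a rho of 0.939 (permutation p = 0.00019, adjusted p = 0.000622). The trifunctional subunits Hadha and Hadhb had an r of 0.978 and a rho of 0.976 (both permutation p = 1e-05, the smallest they can give, adjusted p = 0.00012 and 0.00036). Leaving out the 2 livers farthest from the median of the first gene of a pair gave an r of 0.987 for Slc25a20 and Acadl and of 0.973 for Hadha and Hadhb. Acadl and Acaa2 had the lowest r, 0.489 (permutation p = 0.149, adjusted p = 0.149), with a rho of 0.479 (permutation p = 0.166, adjusted p = 0.171) and an r of 0.411 without the 2 farthest livers. Acaa2 was closest to Acadvl, with an r of 0.886 and a rho of 0.927 (permutation p = 3e-05 and 0.00037, adjusted p = 0.00018 and 0.00111) and an r of 0.867 without the 2 farthest livers. With the group means removed, r ranged from 0.573 to 0.985 over the 36 pairs. With the means of each group on each scan day removed, a setting chosen after the data were seen, r ranged from 0.677 to 0.991 (median 0.904). It was then 0.962 for Slc25a20 and Acadl, 0.963 for Hadha and Hadhb, 0.703 for Acadl and Acaa2 and 0.978 for Acadvl and Acaa2. The permutation p take no account of scan day, and no r is given within a day, which held 5 livers. Against the mean of the other 8 members, r was highest for Hadha (0.985) and lowest for Acaa2 (0.641). All genes of a liver share the scaling of its array.

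**Figure D4:**
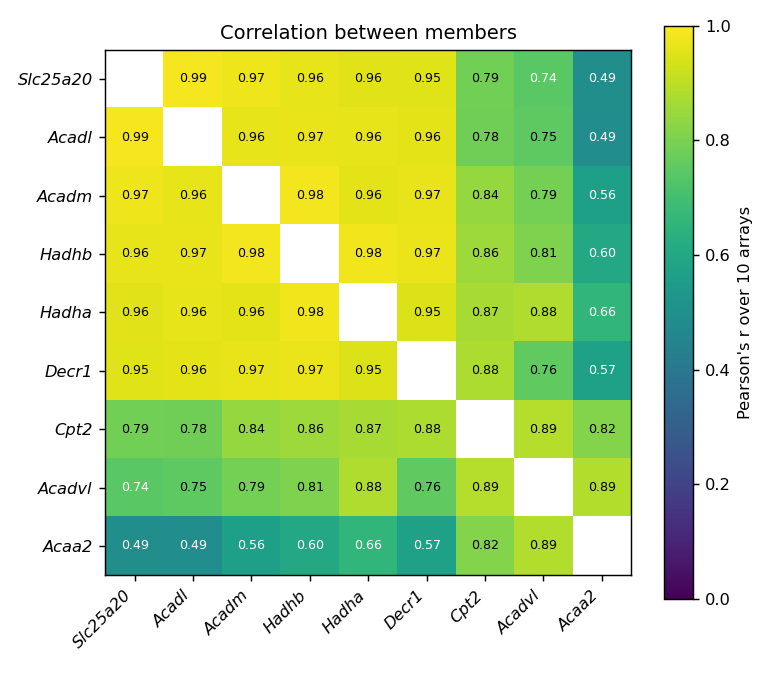
Pearson's r over the 10 livers between each pair of the 9 genes, as colour from 0 to 1 with the value in each cell, both axes listing the genes. Slc25a20, Acadl, Acadm, Hadhb, Hadha and Decr1 form a block of high r, while Acaa2 has its highest r with Acadvl (0.886) and its lowest with Acadl (0.489).

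The transcripts most like the member mean were then named by Pearson's r over the 10 livers, as a description. Among 17838 other genes, 196 (1.1%) had an r of 0.9 or more. The highest belonged to P2ry1, a purinergic receptor (0.987), BC019143 (0.985), Mgll, the monoglyceride lipase (0.984), and Eci1, a mitochondrial enoyl-CoA isomerase of the same pathway (0.983). They were followed by Gstt2, a glutathione transferase (0.980), Mcrip2 (0.976) and Chkb, a choline kinase (0.973). The lowest r were those of Ttf2 (-0.97), Nans (-0.94) and Acta2, smooth muscle actin (-0.93). Eci1 had log2 levels of 4.95, 6.05, 6.31, 6.35 and 5.56 in mulberry 1 to 5, against 6.26, 4.86, 5.18, 5.67 and 5.30 in control 1 to 5. Its difference was 0.39 ± 0.32 (limma adjusted p = 0.888).

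Other genes of fatty acid oxidation were taken from lists of the pathway, and 0 genes of any list passed the limma test. Of 8 genes of fatty acid activation, entry and carnitine handling, 7 were higher on average (median 0.38 on the log2 scale), and 5 were under median scaling and under normexp. Of all genes, 26.8% were higher under median scaling and 52.9% under normexp. Cpt1a, the outer membrane transferase of liver that controls entry, had 5.24 ± 0.38 in mulberry and 4.84 ± 0.69 in control livers (SD, n = 5 each), a difference of 0.40 ± 0.32. Cpt1b, its muscle form, differed by 1.06 ± 0.59, Slc22a5, the carnitine importer, by 0.89 ± 0.48 and Crat, carnitine acetyltransferase, by 0.79 ± 0.38. Acacb, whose product malonyl-CoA inhibits Cpt1, differed by -0.53 ± 0.33. Of 12 other enzymes of the spiral, 9 were higher (median 0.14), among them Acat1 (0.31 ± 0.26), the mitochondrial acetoacetyl-CoA thiolase, and Eci2 (0.25 ± 0.25). Under median scaling 4 of these 12 were higher (median -0.02) and under normexp background correction 2 of 12 (median -0.15). All 3 measured enzymes of propionyl-CoA breakdown were lower on average, Pcca with a difference of -0.32 ± 0.22, Pccb of -0.31 ± 0.18 and Mcee of -0.16 ± 0.20. Their median of -0.31 was -0.16 without mulberry 1, with 1 of 3 higher, and -0.066 without mulberry 1 and 5. All 4 ketone body genes were higher on average (median 0.32; 3 of 4 under median scaling and 2 of 4 under normexp), among them Bdh1, the 3-hydroxybutyrate dehydrogenase, at 6.13 ± 0.53 in mulberry and 5.86 ± 0.40 in control livers (SD, n = 5 each), a difference of 0.27 ± 0.27.

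The regulators of the pathway showed no common direction, with 6 of 11 higher (median 0.01). Ppara, the gene of PPAR alpha itself, differed by 0.23 ± 0.32, Pparg by 0.48 ± 0.29, Ppargc1a, its coactivator, by -0.50 ± 0.30 and Lpin1 by -0.80 ± 0.52. Under median scaling and under normexp 2 of 11 were higher, where 26.8% and 52.9% of all genes were. Of 18 known PPAR alpha targets outside the 9 members, 17 were higher on average (median 0.79), and 2 had an unadjusted p under 0.05, where 3.01% of all genes did in that direction. That count was 11 without control 1 (over all genes, 728 of 17847), 9 without mulberry 1 (938) and 5 without control 4 (414). It was 1 without control 2 (499) or mulberry 3 (640). It was 0 without control 3 (376), control 5 (395), mulberry 2 (582) or mulberry 4 (469). The count was 14 with array weights (9.42% of all genes), and the median was 0.49 under normexp. With slide as a fixed block, where the contrast rests on mulberry 1 against control 1 and 4, the median was -0.97. The 2 genes were Fgf21, a fasting hormone (2.10 ± 0.86, limma adjusted p = 0.888), and Cd36, a fatty acid transporter named after its values were seen (0.63 ± 0.27, limma adjusted p = 0.888). The acyl-CoA thioesterases Acot2 and Acot3 differed by 1.38 ± 0.64 and 1.35 ± 0.65, Vnn1, a pantetheinase, by 1.31 ± 0.63 and Pdk4, the kinase that inhibits pyruvate dehydrogenase, by 0.99 ± 0.46. The targets also split by scan day, with a median of 1.58 on day 1 and -0.22 on day 2.

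The mitochondrial pathways that follow beta-oxidation lay on the other side of 0. All 25 genes of the respiratory chain were lower on average (median -0.20), and under quantile normalization 1 of 25 was higher (median -0.09). Of 13 citric acid cycle genes 1 was higher (median -0.15), and 5 of 13 under quantile normalization. Without mulberry 1 and 5, 14 of 25 and 8 of 13 were higher, with medians of 0.01 and 0.01, where 59.1% of all genes were higher. Mulberry 1 and 5 had the lowest mulberry means of both lists, so leaving them out had to raise the mulberry means. The mean of the centred respiratory chain genes ranged from -0.59 to 0.24 in mulberry livers, with mulberry 1 the lowest, and from -0.13 to 0.22 in control livers.

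**Figure D5:**
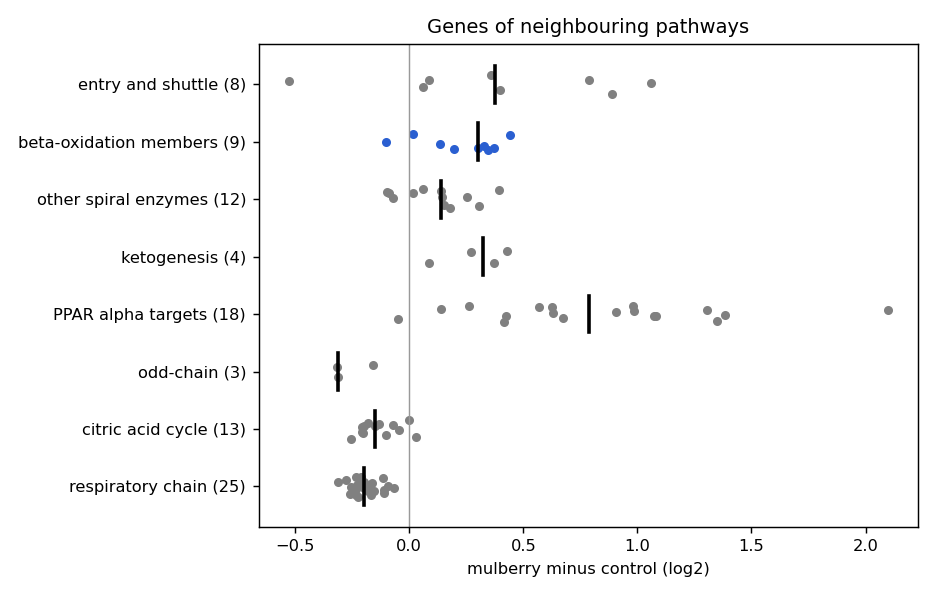
Differences of the genes of each list, mulberry minus control on the log2 scale, 1 point per gene, with the median of each list as a black bar and the number of genes in parentheses. The 9 members have a median of 0.30, the 18 PPAR alpha targets 0.79 and the 25 respiratory chain genes -0.20, and 0 genes passed the limma test.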

How the data were processed

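The deposited scanner tables hold spot intensity, background-subtracted within each array, per the file headers. The submitters' processing notes name Agilent Feature Extraction 10.1.1.1. Spot flags (outlier, well above background) were used as deposited. A deposited table of the whole series holds linear intensity per gene symbol, with a normalization not given in the sources used here; 0 of its columns were left unused. The log2 of the deposited processed intensity was computed here, and flagged outlier and control spots were dropped (43379 spots, 41174 probes, 41128 with values on all arrays). Spots of a probe were averaged and the 75th percentile over probes was subtracted. Accessions were matched to RefSeq GRCm38.p6 (25070 probes, 61.0%); the file headers name an older assembly, so coordinates are given only for the promoter table's own windows. A gene is its probe with the highest mean, tested where at least 4 of the 5 arrays in either group had that probe well above background. Tests used limma 3.58.1 in R 4.3.3 (lmFit, eBayes, two-sided, Benjamini-Hochberg over all genes tested, threshold 0.05), tables being read through data.table (1.17.8), and permutation tests and plots used Python 3.11.15 with scipy 1.17.1, numpy 2.4.6 and matplotlib 3.10.9. The fit was also run on simulated data with independent noise for each gene. Those data held no slide, scan day or shared liver effect, so that run does not bear on such effects. The number of arrays limits the precision.

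The members, lists and tests were chosen with earlier results of these data known. Named are all members, up to 4 genes per pathway list by absolute difference, Cpt1a, Ppara, Pdk4 and Fgf21, the 8 genes most and 4 least like the member mean, and Alb, Ttr and Apoa1; names without a gene symbol are not given, and some genes of this rule are not reported here. The alternatives were other scalings, normexp (offset 50, on median signals, with the background median), the series table, other filters, the probe mean, blocks for slide, scan day and replicate number, array weights, single arrays left out, and some chosen after the data were seen. Levels of dim probes and of close relatives that cross-hybridise are less certain.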

Additional observations from a re-analysis of the deposited data

Results flagged for a closer look

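Among 57 genes and 18 lists, 150 sets of 5 livers were examined for a liver whose gap to its nearest neighbour was a large share of the group's range, above Dixon's critical value of 0.71. Such a liver was found in 5 of the sets, where about 8 are expected by chance at 1 in 20, and 0 of these concerned the 9 beta-oxidation members. Mulberry 1 and control 2 were each flagged in more than 1 set. Cs, citrate synthase, was highest in mulberry 2 (5.19, against 4.97 to 5.02 in the other mulberry livers, gap 0.771 of the range). Fh1, fumarate hydratase, was lowest in mulberry 1 (4.38, against 5.26 to 5.57, gap 0.735). Ttr was also lowest in mulberry 1 (2.73, against 3.48 to 3.70, gap 0.767). Lpin1 was lowest in control 2 (1.28, against 3.40 to 4.07 in the other controls, gap 0.762). The mean of the hepatocyte markers was lowest in control 2 (-0.22, against 0.20 to 0.36, gap 0.716). Values are log2 levels, and the mean is over markers centred on their means over the 10 livers.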

How the results depend on the processing

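No member passed the threshold under any alternative (smallest limma adjusted p = 0.193, with array weights), and 43 of 252 member values had the other sign than in the main fit. The members named below for each setting are those with the other sign. Acaa2, already lower in the main fit, is added where all members were lower. With slide as a fixed block, the contrast rests on mulberry 1 against control 1 and 4, on the slide with both groups. The median was then -0.88, with Cpt2 -0.90, Slc25a20 -0.90, Acadm -0.81, Acadl -0.80, Acadvl -0.83, Hadha -0.71, Hadhb -0.88, Decr1 -0.90 and Acaa2 -0.96. Within day 2 the median was -0.30, with Cpt2 -0.32, Slc25a20 -0.30, Acadm -0.20, Acadl -0.31, Acadvl -0.38, Hadha -0.26, Hadhb -0.25, Decr1 -0.18 and Acaa2 -0.32. Within day 2 without mulberry 1 the median was -0.00015, with Cpt2 -0.031, Acadl -0.070, Acadvl -0.16 and Hadha -0.028. Within day 2 without control 1 it was -0.085, with Cpt2 -0.13, Slc25a20 -0.055, Acadl -0.085, Acadvl -0.30 and Hadha -0.091. Median scaling (median of all genes -0.17) gave Cpt2 -0.026 and Acadvl -0.14, and normexp gave Cpt2 -0.17, Acadvl -0.31 and Hadha -0.10 (member median 0.02). Acadvl was -0.077 with slide as a random block and -0.016 with day as a block. Acaa2 was 0.043 under quantile normalization, 0.044 in the series table, 0.038 with array weights, 0.13 within day 1 and 0.20 without mulberry 1 and 5. The cause of these changes was not tested.

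Leaving out single livers gave member medians of 0.18 to 0.51, Acadvl of -0.10 to 0.15, Acaa2 of -0.22 to 0.085, and 0 to 1 genes past the threshold. That gene was Rnf208, without mulberry 1 and also with array weights (1 gene); without mulberry 1 and 5 there were 3 (Rnf208, Lipf and a transcript without a symbol). The within-day settings and the removal of mulberry 1 and 5 were chosen after seeing the data. Deviations of mulberry and control livers of the same number correlated at -0.26, -0.44, 0.41, 0.01 and -0.03. These few values cannot show whether mice of the same number were paired, and the labels do not say. Livers of number 1 shared a slide, and those of numbers 3, 4 and 5 shared a scan day. The replicate block gave 0 genes past the threshold, 985 at unadjusted p under 0.05 and a member median of 0.30. The interaction with scan day had 0 genes past the threshold in each setting where it was fitted.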
